A study of Mus musculus with 8 samples.

Results

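The glucocorticoid receptor gene Nr3c1 and 7 genes that glucocorticoid hormones induce (Fkbp5, Tsc22d3, Sgk1, Ddit4, Klf9, Zbtb16 and Hsd11b1) were followed across genotypes and treatments in mouse lymph node (LN). A probe set counted only if the annotation tied it to exactly 1 of them. Where a gene had more than 1, the brightest on average over the 8 arrays stood for it. They are 8 of 12393 genes with a probe set of their own, and have 3, 2, 3, 1, 1, 7, 2 and 1 probe sets in the order above. LN RNA was compared between H3RKO mice (B6.129P2-Hrh3tm1Twl, which lack the histamine H3 receptor) and WT C57Bl/6 mice. Mice of each genotype received CFA (complete Freund's adjuvant, mycobacteria in oil) together with PTX (pertussis toxin), received CFA alone, or were left untreated. There was 1 array each for H3RKO CFA+PTX, WT CFA+PTX, H3RKO CFA and WT CFA, and there were 2 each for untreated H3RKO and untreated WT. Each array held RNA of at least 3 pooled mice of 8 weeks, females and males, and injected mice were killed at 24 h. For the CFA+PTX arrays the sample titles mention only PTX, and the descriptions mention both agents.

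Corticosterone, the main glucocorticoid of mice, is released by the adrenal gland during stress and inflammation. It binds the receptor encoded by Nr3c1, which is held in the cytoplasm by Hsp90 and its co-chaperones, enters the nucleus and activates genes from response elements, classically an inverted repeat of a short unit. Among the induced genes, Fkbp5 encodes a co-chaperone that lowers the receptor's affinity for hormone, Tsc22d3 encodes the leucine zipper protein GILZ, which restrains inflammatory transcription factors, and Hsd11b1 encodes the enzyme that regenerates active hormone within cells. In lymphoid tissue these hormones are known for killing immature lymphocytes, damping cytokine production and redirecting lymphocyte traffic.

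The start regions of the members were searched for the receptor's response element, because the receptor activates genes through it. RefSeq start windows on GRCm38.p6, each of 300 bases, were available for 13 starts of 6 members (6 of Sgk1, 3 of Tsc22d3 and 1 each of Fkbp5, Ddit4, Klf9 and Hsd11b1). The full palindrome, AGAACA and TGTTCT with 3 free bases between them, was searched on both strands and occurred in 3 of 32851 windows (0.00913%), and 1 of these belonged to Sgk1. The 250 bases before that start lie at chr10:21993640-21993889 on the plus strand, and the capitals mark the match, from −189 to −175 relative to the start.
Sgk1: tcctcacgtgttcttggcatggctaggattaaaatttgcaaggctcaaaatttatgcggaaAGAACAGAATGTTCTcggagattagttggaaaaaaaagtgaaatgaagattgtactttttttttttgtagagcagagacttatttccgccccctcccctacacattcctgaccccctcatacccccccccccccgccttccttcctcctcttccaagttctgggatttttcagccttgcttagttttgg
A looser form, GNACA and TGTNC with 3 free bases between them, lies within the full palindrome. It matched 0.475% of all windows, 1 of the 13 member windows (the same Sgk1 start) and 2 of 29 windows of other glucocorticoid-induced genes. These were a window of Mt1, a metallothionein gene, at chr8:94178987-94179015, and one of Txnip, which encodes a thioredoxin inhibitor, at chr3:96557777-96557805, both on the plus strand, with the match in capitals.
Mt1: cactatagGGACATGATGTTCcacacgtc
Txnip: cgctaggaGCACACCGTGTCCacgcgccc
The unit AGAACA alone, on either strand, was found in 4 of the 13 member windows and in 19.0% of all windows. These 4 windows belonged to Sgk1 and Tsc22d3 only, and Sgk1 supplied 6 of the 13. A match is a description of these letters and not of receptor binding.

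Signals are given as log2 of the RMA summary, in which 1 unit is a doubling, and the medians of the 8 arrays lay between 7.94 and 8.00. Markers of lymphocytes were well represented, with mean log2 signals of 11.27 to 11.58 over 9 B cell markers and of 10.60 to 10.85 over 8 T cell markers. Markers of salivary and lacrimal gland set 2 arrays apart: their mean read 5.23 with CFA+PTX in WT and 9.06 in 1 untreated WT array, against 11.89 to 12.75 in the other 6. Hrh3 was read at 7.20 to 7.29 in the H3RKO arrays and at 6.56 to 6.66 in the WT arrays. Where its probe set lies relative to the targeted part is not given in the sources used here, so it does not check the genotype labels. In bulk LN RNA, fewer cells of a type and less RNA per cell cannot be told apart.

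LN of mice given CFA+PTX had higher signals of most of the induced genes than untreated LN, and a steady signal of the receptor gene itself. Of the 7 induced genes, 6 were higher on average, by 0.45 to 0.71 on the log2 scale, and Hsd11b1 was lower. None of these differences passed the adjusted threshold in a design with 2 CFA+PTX arrays. In 4 of the genes both CFA+PTX arrays lay above all 6 other arrays, as they did in 7.22% of all genes.

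Nr3c1 had log2 signals of 10.86 in the H3RKO CFA+PTX array and 11.00 in the WT CFA+PTX array, against 10.90 and 10.98 in untreated H3RKO and 10.96 and 10.85 in untreated WT. The CFA arrays read 11.02 in H3RKO and 10.93 in WT. All 8 arrays of the receptor gene thus fell within 0.17 log2 units, and the groups overlapped. Relative to untreated LN, CFA+PTX differed by 0.01 ± 0.08 (SE; adjusted p = 0.975, limma), with a 95% interval from −0.17 to 0.18. Its other 2 probe sets were lower with CFA+PTX, the more so by 0.12.

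**Figure D1:**
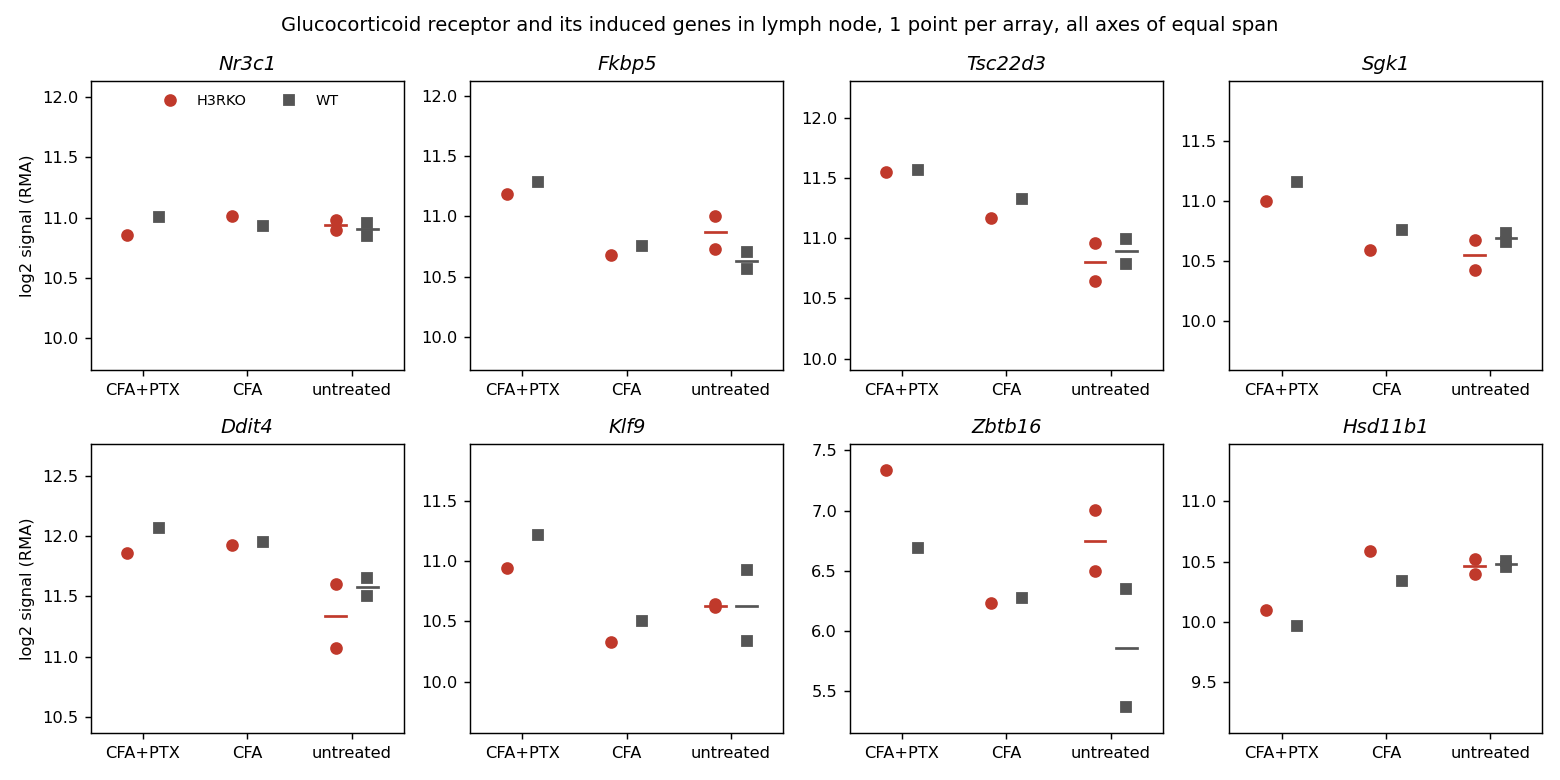
Log2 RMA signal of each member (vertical axis, of equal span in every panel) by treatment, with red circles for H3RKO arrays, grey squares for WT arrays and short lines for the means of untreated pairs. Tsc22d3, Fkbp5, Sgk1 and Klf9 had their 2 highest arrays in CFA+PTX, Hsd11b1 had its 2 lowest there, and Nr3c1 stayed between 10.85 and 11.02.

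Tsc22d3 showed the clearest separation. Its log2 signals were 11.55 in H3RKO CFA+PTX and 11.56 in WT CFA+PTX, 11.17 in H3RKO CFA and 11.32 in WT CFA, against 10.96 and 10.65 in untreated H3RKO and 10.99 and 10.79 in untreated WT. On this probe set, the brightest, the treatments did not overlap in either genotype, and the arrays stood in the order CFA+PTX, CFA, untreated. With CFA+PTX it was higher than in untreated LN by 0.71 ± 0.10, or 1.64-fold (adjusted p = 0.122, limma). All 3 of its probe sets were higher on average with CFA+PTX, by 0.14 to 0.71, but the full order was that of the brightest only. On the next brightest, H3RKO CFA and the higher untreated H3RKO array both read 10.92. On the dimmest, WT CFA+PTX read 7.90, below untreated WT at 7.92 and 7.95 and WT CFA at 8.03.

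Fkbp5, a classical readout of receptor activity, had log2 signals of 11.19 in H3RKO CFA+PTX and 11.28 in WT CFA+PTX, against 11.01 and 10.73 in untreated H3RKO and 10.70 and 10.56 in untreated WT. The CFA arrays, at 10.68 in H3RKO and 10.75 in WT, lay within the untreated range. The difference of CFA+PTX from untreated was 0.48 ± 0.12, or 1.40-fold (adjusted p = 0.224, limma). The highest untreated array of Fkbp5 was an H3RKO one, and both untreated H3RKO arrays read above both untreated WT arrays. Both probe sets of the gene were higher on average with CFA+PTX, the dimmer one by 0.39 ± 0.18 (unadjusted p = 0.0595, limma). On the dimmer probe set the H3RKO CFA+PTX array and the highest untreated H3RKO array both read 9.41. The separation of CFA+PTX from untreated LN in Fkbp5 was thus that of the brighter probe set only.

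Sgk1, with the palindrome printed above in 1 of its 6 start windows, encodes a kinase acting on ion channels and T helper cell differentiation. It had log2 signals of 11.00 in H3RKO CFA+PTX and 11.16 in WT CFA+PTX, against 10.68 and 10.43 in untreated H3RKO and 10.73 and 10.65 in untreated WT. With CFA alone it read 10.60 in H3RKO and 10.76 in WT, near the untreated arrays. CFA+PTX exceeded untreated LN by 0.46 ± 0.08, or 1.37-fold (adjusted p = 0.194, limma), and it was nearly equal within the genotypes, at 0.45 in H3RKO and 0.47 in WT.

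Klf9, which encodes a Krüppel-like transcription factor, had log2 signals of 10.95 in H3RKO CFA+PTX and 11.22 in WT CFA+PTX, against 10.64 and 10.62 in untreated H3RKO and 10.93 and 10.33 in untreated WT. The untreated WT pair spread over most of the gene's range, and its higher array came within 0.02 of the H3RKO CFA+PTX array. The CFA arrays of Klf9 read 10.33 in H3RKO, close to the lowest untreated array, and 10.50 in WT, between the untreated WT arrays. On average CFA+PTX stood 0.45 ± 0.16 above untreated (adjusted p = 0.318, limma), and 6 of its 7 probe sets were higher.

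Ddit4 encodes an inhibitor of mTORC1 that hypoxia and other stresses induce as well. Its log2 signals were 11.86 in H3RKO CFA+PTX and 12.07 in WT CFA+PTX, 11.93 in H3RKO CFA and 11.95 in WT CFA, against 11.61 and 11.07 in untreated H3RKO and 11.65 and 11.50 in untreated WT. All 4 injected arrays exceeded all 4 untreated ones, a pattern shared only with Tsc22d3 among the members and found in 3.36% of genes. With CFA+PTX the excess over untreated LN was 0.51 ± 0.14 (adjusted p = 0.262, limma).

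Zbtb16 encodes PLZF, a transcription factor that natural killer T (NKT) cells need, and its signal was dim. The probe set that stood for it read 7.34 in H3RKO CFA+PTX and 6.69 in WT CFA+PTX, 6.23 in H3RKO CFA and 6.28 in WT CFA, against 7.00 and 6.50 in untreated H3RKO and 6.35 and 5.37 in untreated WT. It spanned 1.97 log2 units, the widest range of the members, and the treatments overlapped. CFA+PTX differed from untreated by 0.71 ± 0.31 (adjusted p = 0.419, limma), with a 95% interval from −0.02 to 1.44. Its other probe set, which is not of the class that may cross-hybridize, was higher by 0.39 ± 0.09 (adjusted p = 0.211, limma). The 95% interval of that difference ran from 0.18 to 0.59. On that probe set the CFA+PTX arrays read 6.85 in H3RKO and 6.53 in WT, above every other array (6.24 to 6.36).

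Hsd11b1 went the other way. Its log2 signals were 10.10 in H3RKO CFA+PTX and 9.97 in WT CFA+PTX, against 10.52 and 10.40 in untreated H3RKO and 10.51 and 10.45 in untreated WT. The CFA arrays read 10.59 in H3RKO and 10.34 in WT, so that both CFA+PTX arrays lay below all 6 others. The difference of CFA+PTX from untreated was −0.44 ± 0.08 (adjusted p = 0.197, limma). The gene is also expressed in fat, and 12 of 12 adipocyte markers were also lower with CFA+PTX, their mean signal being 9.92 in H3RKO and 10.20 in WT CFA+PTX, against 10.20 to 10.66 in the untreated arrays. In the CFA arrays that mean was 10.33 in H3RKO and 9.98 in WT. The part of fat in the Hsd11b1 signal was not tested.

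In the limma fit of CFA+PTX against untreated, 0 of the 8 members were called at an adjusted p under 0.05, as were 0% of the 12393 genes. At an unadjusted p under 0.05 there were 6 members, beside 13.1% of all genes. Of these, 5 were higher (Fkbp5, Tsc22d3, Sgk1, Ddit4 and Klf9), beside 7.55% of genes, and Hsd11b1 was lower, beside 5.54%. The median difference of the members was 0.47, against 0.01 over all genes. Both CFA+PTX arrays exceeded all 6 others in 4 members, beside 7.22% of genes, and lay below them in 1, beside 6.41%. Fitted with a trend and robust prior, limma called 1 member, Tsc22d3 (adjusted p = 0.0321). Without the 2 arrays of low gland signal, the 6 differences kept their direction, at 0.77 for Tsc22d3, 0.51 for Ddit4, 0.46 for Sgk1, 0.38 for Klf9, 0.37 for Fkbp5 and −0.40 for Hsd11b1. These values rest on the H3RKO array alone for CFA+PTX, because the WT one was left out.

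**Figure D2:**
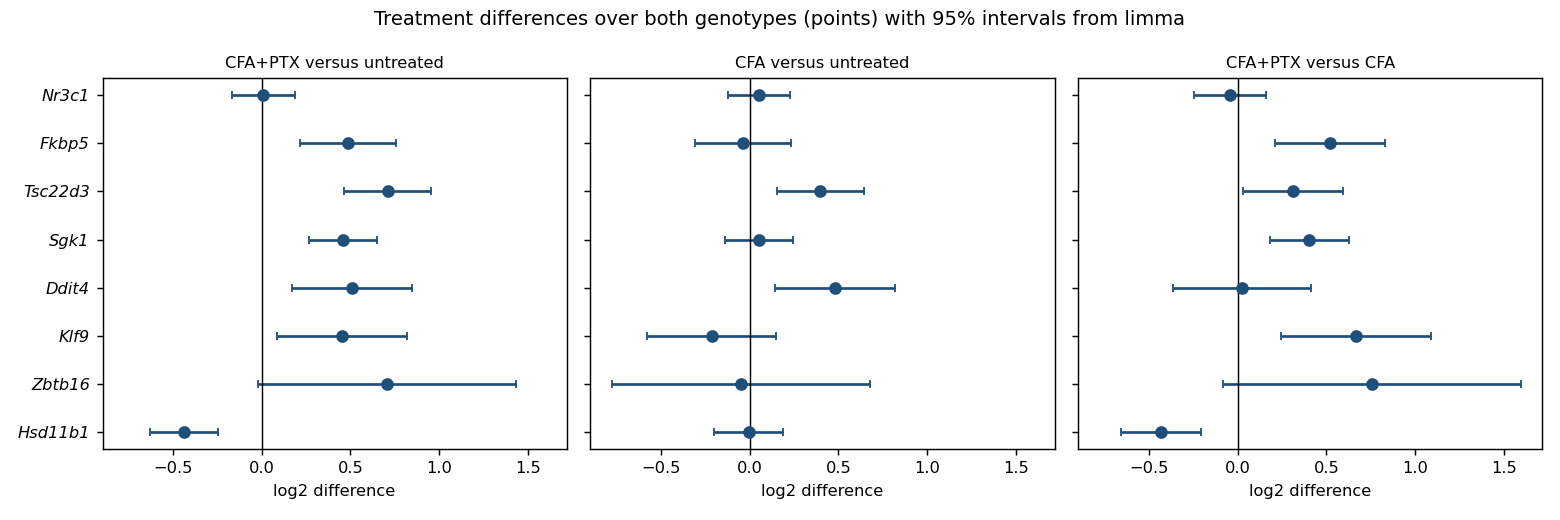
Log2 differences of the members between treatments over both genotypes (horizontal axis), with 95% intervals from limma, 1 panel per comparison. With CFA+PTX against untreated, 6 members had intervals clear of 0, while with CFA against untreated only Tsc22d3 and Ddit4 did.

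CFA alone was accompanied by higher signals of Tsc22d3 and Ddit4, while the CFA arrays of Klf9 were low and those of Zbtb16 differed from untreated LN in opposite directions in the 2 genotypes. Tsc22d3 was higher by 0.40 ± 0.10 (adjusted p = 0.629, limma) and Ddit4 by 0.48 ± 0.14 (adjusted p = 0.700). The differences of the other 6 lay between −0.21 for Klf9 and 0.05 for Sgk1. All 7 probe sets of Klf9 were lower with CFA, the farthest by −0.46. Zbtb16 averaged −0.05, made up of −0.52 in H3RKO and 0.42 in WT. These values came from the probe set of the class that may cross-hybridize. On it the WT CFA array, at 6.28, lay between the untreated WT arrays at 6.35 and 5.37. The gene's other probe set averaged 0.02. Fkbp5 (−0.19 in H3RKO and 0.12 in WT) and Hsd11b1 (0.13 and −0.14) also differed in sign between the genotypes. In the limma fit 0 of 8 members were called, as were 0% of genes, and 2 of 8 had an unadjusted p under 0.05, both higher, beside 6.08% of genes in either direction and 2.78% higher. The same 2 had both CFA arrays above all 4 untreated arrays, as 8.7% of genes did.

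Set against CFA, the addition of PTX went with higher Fkbp5, Sgk1, Klf9 and Tsc22d3 and with lower Hsd11b1, while the averages of Ddit4 and Nr3c1 lay close together. Klf9 was higher by 0.67 ± 0.18, Fkbp5 by 0.52 ± 0.13, Sgk1 by 0.40 ± 0.09 and Tsc22d3 by 0.31 ± 0.12, and Hsd11b1 was lower, at −0.43 ± 0.10. Of the 3 Tsc22d3 probe sets 1 was lower, at −0.10, and the mean of all 3 gave 0.19. Zbtb16 differed by 0.76 ± 0.36, the widest of the members, with a 95% interval from −0.08 to 1.60. Its other probe set differed by 0.36 ± 0.10, with a 95% interval from 0.13 to 0.60. Ddit4 differed by 0.02 ± 0.17, with a 95% interval from −0.37 to 0.41. The lowest adjusted p among the members was 0.855 (limma), so 0 of 8 were called, as were 0% of genes, and 5 of 8 had an unadjusted p under 0.05, beside 5.99% of genes. The 4 higher ones stand beside 3.33% of genes and the 1 lower beside 2.65%. Both CFA+PTX arrays exceeded both CFA arrays in 5 members, Zbtb16 being the fifth, and in 19.5% of genes. The 3 treatment comparisons share arrays, and the values above are each comparison's own.

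With all 4 injected arrays set against the 4 untreated ones, 0 of 8 members were called, beside 0.0323% of genes, and 5 of 8 had an unadjusted p under 0.05, beside 11.1% of genes (limma). The 4 higher ones stand beside 6.04% of genes and the 1 lower beside 5.05%. Tsc22d3 was higher by 0.55 ± 0.09 (adjusted p = 0.138), Ddit4 by 0.49 ± 0.12, Sgk1 by 0.26 ± 0.07 and Fkbp5 by 0.22 ± 0.09, and Hsd11b1 was at −0.22 ± 0.07. The Fkbp5 value was 0.07 with the gene's more variable probe set.

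A longer list of genes known to respond to glucocorticoid leaned the same way with CFA+PTX. Of 28 measured, 22 were higher than in untreated LN, with a median of 0.14, beside 52.2% of all genes and a median of 0.01. In limma 0 of 28 were called, as were 0% of genes, and 13 had an unadjusted p under 0.05, beside 13.1% of genes. Of these 11 were higher, beside 7.55% of genes, and 2 lower, beside 5.54%. Dusp1, a phosphatase gene that shuts off MAP kinases, had log2 signals of 10.93 in H3RKO and 10.80 in WT CFA+PTX, against 10.05 and 10.13 in untreated H3RKO and 10.09 and 9.87 in untreated WT. These did not overlap, and the difference was 0.83 ± 0.09 (adjusted p = 0.0826). Il7r, the interleukin-7 receptor gene, was at 12.13 in H3RKO and 12.47 in WT CFA+PTX, against 11.34 to 11.67 in the 4 untreated arrays (0.78 ± 0.13). Lcn2, which encodes the neutrophil protein lipocalin-2, was higher by 0.88 ± 0.21 and Errfi1, an inhibitor of epidermal growth factor receptors, by 0.80 ± 0.25. Errfi1 overlapped, at 10.46 in H3RKO CFA+PTX against 10.51 in 1 untreated WT array. Lcn2 was barely separated, at 8.27 in WT CFA+PTX against 8.25 in 1 untreated H3RKO array. The 2 lower ones, chosen after their values were seen, were Anxa1, which encodes the anti-inflammatory protein annexin A1, at −0.33 ± 0.08 and Bcl6, a repressor gene of germinal centre B cells and follicular helper T cells, at −0.30 ± 0.10. Bcl6 was at −0.18 without the WT CFA+PTX array. Against CFA, 22 of 28 were again higher with CFA+PTX (median 0.20), beside 48.8% of all genes. With CFA against untreated 17 of 28 (60.7%) were higher (median 0.04), beside 55.7% of all genes.

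**Figure D3:**
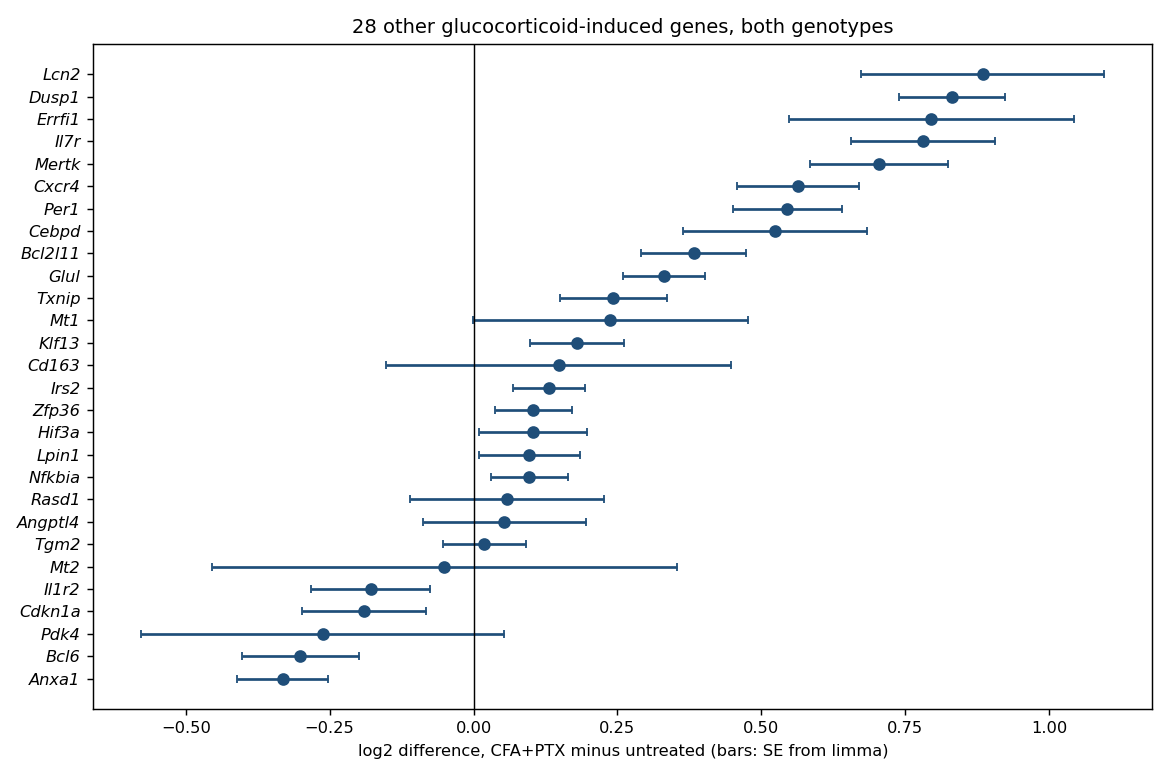
Log2 difference of CFA+PTX from untreated LN over both genotypes (horizontal axis) for 28 other glucocorticoid-induced genes, with SE bars from limma. Lcn2, Dusp1, Errfi1 and Il7r lay highest, between 0.78 and 0.88, and 6 genes lay below 0.

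The receptor's partners and its other targets follow by counts, which stand beside 52.2% of all genes higher with CFA+PTX than in untreated LN. Of 13 chaperone and coregulator genes, 9 were lower with CFA+PTX than in untreated LN (median −0.08), led by Stip1 at −0.45 ± 0.09, Hsp90aa1 at −0.42 ± 0.12 and Fkbp4 at −0.34 ± 0.11, all of which encode parts of the Hsp90 machinery. Among 10 genes of steroid supply and clearance, 6 were higher (median 0.06), with Abcb1a, a drug and steroid exporter gene, at 0.37 ± 0.08 and Hsd11b2, whose enzyme inactivates corticosterone, at 0.33 ± 0.11. Of 20 genes that glucocorticoid is known to lower, 13 were lower (median −0.04), among them Ccl2 at −0.60 ± 0.26, Mmp9 at −0.50 ± 0.12 and Ccl3 at −0.45 ± 0.14, while Il12b was higher by 0.50 ± 0.17. Of these 4 values, 3 depended on single arrays. Ccl2 was at −0.36 without untreated WT replicate 1, Ccl3 at −0.13 without the H3RKO CFA+PTX array and at −0.78 without the WT one, and Il12b at 0.16 without the WT CFA+PTX array and at 0.84 without the H3RKO one. None of these genes was called in limma. Hsd11b2 (5.79 to 6.46 over the 8 arrays), Ccl3 (4.76 to 5.64) and Il12b (5.57 to 6.98) were dim, which limits their values. Hypoxia genes, which share Ddit4's other inducer, were higher in 8 of 14 (median 0.06).

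Markers of other cells differed between the same arrays. Their counts stand beside 52.2% of all genes higher with CFA+PTX than in untreated LN. With CFA+PTX against untreated, B cell markers were lower in 9 of 9 (median −0.10), markers of NKT and innate lymphocytes in 7 of 8 (median −0.25) and gland markers in 10 of 10 (median −3.20), while neutrophil markers were higher in 7 of 10 (median 0.15). The low gland signal was that of the WT CFA+PTX array, with a list mean of 5.23. In H3RKO that mean was 12.49 with CFA+PTX, against 12.02 and 12.75 in untreated LN. The mean signal of the NKT list was 8.53 in H3RKO and 8.69 in WT CFA+PTX, against 8.80 to 8.84 in the untreated arrays, and Zbtb16, a gene of such cells, averaged higher in those arrays than in untreated LN. The difference between 3′ and 5′ probe sets of the Actb and Gapdh controls, a sign of RNA quality, was 0.302 in H3RKO and 0.346 in WT CFA+PTX and 0.439 in H3RKO and 0.315 in WT CFA, against 0.164 to 0.307 in the untreated arrays. The part of cell makeup and RNA quality in the members' differences was not tested.

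**Figure D4:**
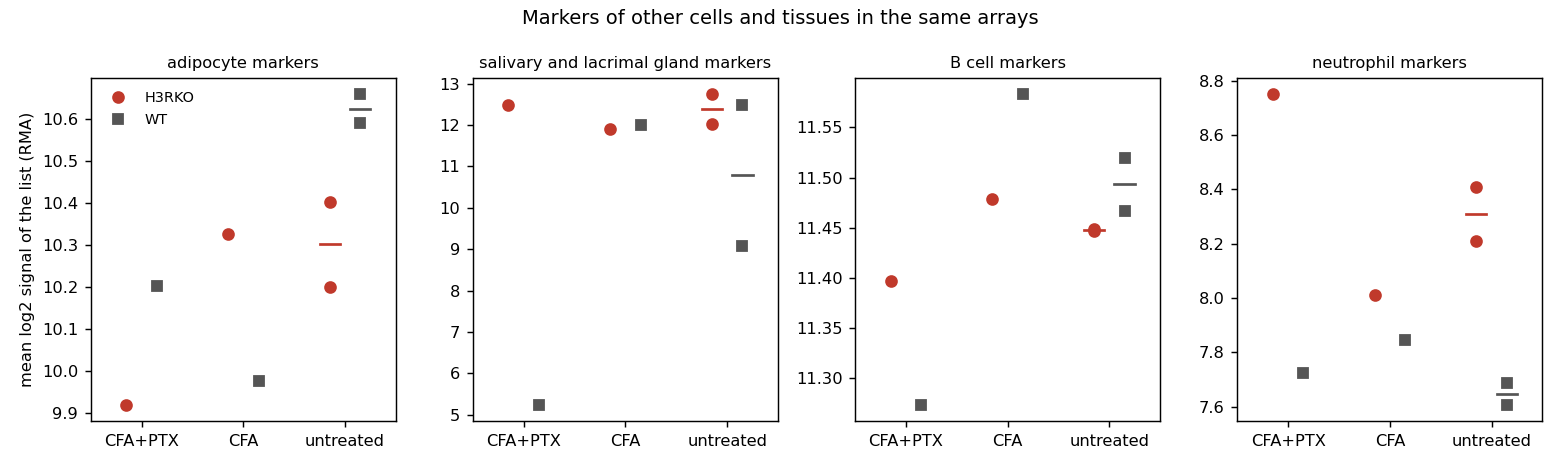
Mean log2 RMA signal of 4 marker lists (vertical axis, with a scale of its own in each panel) by treatment, with red circles for H3RKO arrays, grey squares for WT arrays and short lines for the means of untreated pairs. The gland list was at 5.23 in the WT CFA+PTX array, and the neutrophil list was higher in H3RKO than in WT at each treatment.

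Loss of the H3 receptor was accompanied by no called difference in the members at any treatment. Over all treatments 0 of 8 were called in limma, as were 0% of genes, and the adjusted p was 0.999 for each. Zbtb16 was higher in H3RKO by 0.60 ± 0.25, the 1 member with an unadjusted p under 0.05, beside 3.84% of genes in either direction and 1.29% higher. That value came from a probe set of the class that may cross-hybridize, and the gene's other probe set gave 0.10 ± 0.07 (unadjusted p = 0.192, limma). Without the untreated WT array at 5.37 it was 0.34. Sgk1 stood at −0.15 ± 0.07 and the other 6 between −0.18 and 0.08. No member had all 4 H3RKO arrays above or below all 4 WT arrays, patterns found in 0.831% and 1.03% of genes.

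Within untreated LN, the methods' criterion of an unadjusted p under 0.05 with a fold change over 2 was met by 0 of 8 members and 0.161% of genes, and 1 member had such a p without the fold change, beside 4.9% of genes. Zbtb16 averaged 6.75 ± 0.36 in untreated H3RKO and 5.86 ± 0.69 in untreated WT (SD, n = 2 each), a difference of 0.89 ± 0.34 (adjusted p = 0.916, limma). That difference rested on 1 probe set and largely on 1 WT array at 5.37. The gene's other probe set differed by 0.01, and without the low WT array the difference was 0.40. Fkbp5 averaged 10.87 ± 0.20 in untreated H3RKO and 10.63 ± 0.10 in untreated WT, a difference of 0.23 ± 0.12 with a 95% interval from −0.07 to 0.54. Its other probe set differed by 0.43 ± 0.16, with an interval from 0.04 to 0.82 (unadjusted p = 0.0353, limma). Fkbp5 and Zbtb16 had both H3RKO arrays above both WT arrays, as 12.5% of genes did.

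After CFA+PTX the 2 genotypes gave close readings of Tsc22d3, which differed by −0.01 with a 95% interval from −0.50 to 0.48. The other members except Zbtb16 (0.65 ± 0.48) lay between −0.27 for Klf9 and 0.13 for Hsd11b1. The criterion was met by 0 of 8, beside 0.347% of genes. After CFA the differences ran from −0.18 for Klf9 to 0.25 for Hsd11b1, and again 0 of 8 met it, beside 0.145% of genes. Each injected group had 1 array, so these intervals rest on the spread of the untreated pairs.

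**Figure D5:**
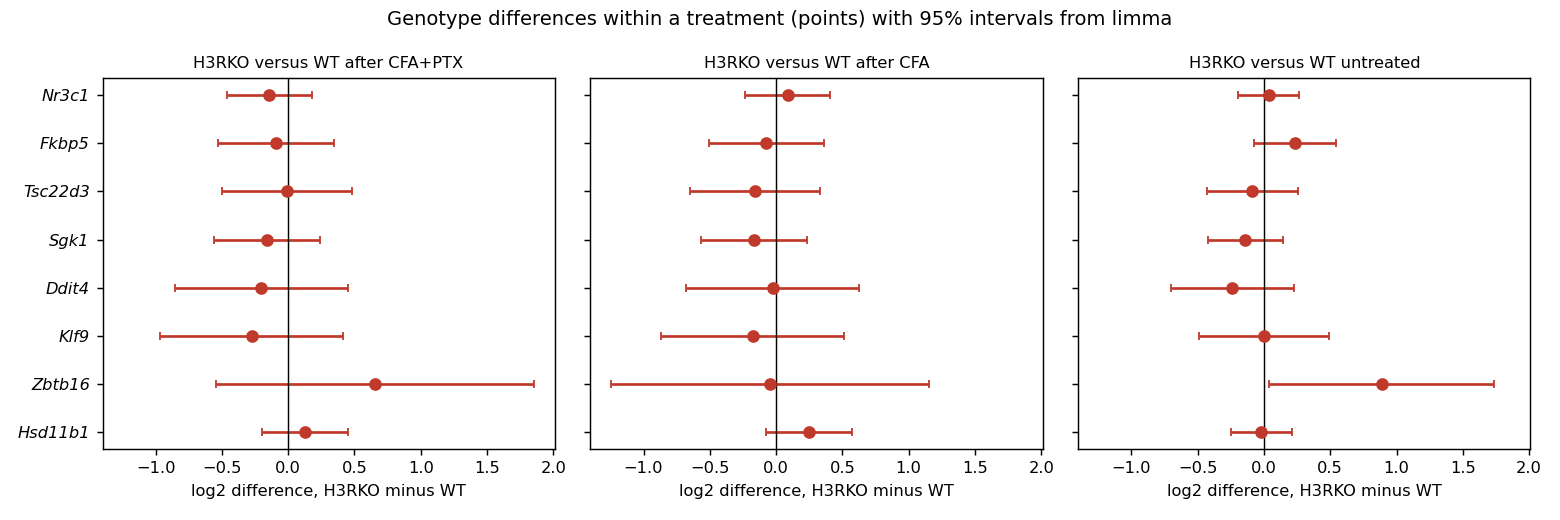
Log2 difference of H3RKO from WT (horizontal axis) for each member within a treatment, with 95% intervals from limma. All intervals include 0 except that of Zbtb16 in untreated LN, from 0.04 to 1.74.

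The response to treatment was not shown to differ between the genotypes. The genotype difference after CFA+PTX minus that in untreated LN met the criterion in 0 of 8 members, beside 0.307% of genes, and that after CFA in 0 of 8, beside 0.412% of genes (limma). Fkbp5 was higher with CFA+PTX than in untreated LN by 0.32 in H3RKO and by 0.65 in WT, and this gap was −0.33 ± 0.21. For Tsc22d3 the difference of CFA+PTX from untreated was 0.75 in H3RKO and 0.67 in WT. With the gene's other probe set the Fkbp5 gap was −0.58 ± 0.27. The interaction of Zbtb16 with CFA was −0.93 ± 0.59 with the probe set that stood for it and 0.07 ± 0.16 with the other. It was −0.44 without the untreated WT array at 5.37 and −1.43 without the other untreated WT array.

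In untreated LN, most members read higher in the same 1 of the 2 pools of a genotype. Each gap is 1 array against 1. Some gaps were small, such as Klf9 in H3RKO (10.64 and 10.62) and Hsd11b1 in WT (10.51 and 10.45). In untreated H3RKO 7 of 8 members were higher in replicate 1 than in replicate 2, with a median gap of 0.26, and in untreated WT 8 of 8 were, with a median gap of 0.14. Among all genes 49.6% in H3RKO and 56% in WT were higher in replicate 1, with median gaps of 0.00 and 0.02. Of the 28 other induced genes, 21 in H3RKO and 18 in WT were higher in replicate 1. Untreated WT replicate 1 is the array with a gland signal of 9.06, against 12.50 in replicate 2, and the 3′ minus 5′ difference of the controls was 0.187 in replicate 1 and 0.307 in replicate 2. In the H3RKO pair that difference was 0.186 in replicate 1 and 0.164 in replicate 2. The part of these in the gaps was not tested. The replicate number is only a name, and the 2 genotypes are described side by side. In Ddit4 the untreated H3RKO pair, at 11.61 and 11.07, lay as far apart as its treatments did on average.

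Across the 8 arrays, which differ in treatment and genotype, the likeness between members varied from pair to pair. Among the 6 induced genes other than Hsd11b1, Pearson's r ran from 0.21 between Ddit4 and Zbtb16 to 0.89 between Tsc22d3 and Ddit4. It was 0.30 between Ddit4 and Klf9, 0.42 between Sgk1 and Zbtb16, 0.88 between Tsc22d3 and Sgk1 and 0.81 between Fkbp5 and Sgk1, while Hsd11b1 ran against these 6, at −0.84 with Sgk1 and −0.41 with Ddit4. Nr3c1 followed none of the others (−0.08 to 0.16). Among about 2115 genes that ranged over at least 0.5 log2 units, those most like Tsc22d3 were Cxcr4, a chemokine receptor gene that is itself on the list of induced genes (0.98), Zfp1 and Ggt5. Those most like Sgk1 were Ppp1r21, Ccr7 and Apbb2, those most like Fkbp5 Adamts15, Map3k6 and Cd14, and those most like Klf9 Il18bp, B3galnt1 and Pde2a. Tmem163, Orm3 and Reep3 were most like Ddit4, Prg2, Lrrc6 and Trgv4 most like Zbtb16, P2rx5, Prxl2a and Mpc1 most like Hsd11b1, and Npy5r, Bcl2l10 and Rcan2 most like Nr3c1, with r from 0.82 to 0.98 over all of these. Each was picked as among the highest of about 2115 correlations over 8 arrays, without a test. Even Nr3c1, whose arrays lay within 0.17 log2 units, reached 0.92 with Npy5r.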

How the data were processed

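RNA from pooled mouse LN was measured on 8 single-colour Affymetrix arrays. Per the labels and the study's methods, the authors background-corrected, normalized and summarized probe intensities per probe set by RMA in Partek Genomic Suite, and deposited them as log2 values. No earlier step was repeated. Of 22690 probe sets, 64 controls were set aside and 22626 tested. The platform annotation tied 20380 of these to 1 gene. For treatment effects and the overall genotype difference, genotype and treatment were fitted additively (limma 3.58.1, R 4.3.3), with 4 residual degrees of freedom and Benjamini-Hochberg adjusted p under 0.05 over all probe sets. Genotype differences within a treatment and interactions came from a mean per group with 2 residual degrees of freedom, so that lone injected arrays were assumed to vary like the untreated pairs. They were called at the methods' criterion, a fold change over 2 with an unadjusted p under 0.05. Nothing in the labels says how the 2 pools of an untreated group were kept apart, so p-values measure the spread between these arrays, which may be technical, and the number of arrays limits the precision.

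The members and lists were chosen with earlier results of these data known. Named genes were Hrh3, the members, the called genes of each list with up to 4 of its largest differences, and the 3 genes most like each member over the 8 arrays. Genes named beyond this were chosen after their values were seen. Lists are described by counts and medians. The alternatives were repeated quantile normalization, median centring, fits without moderation or with a trend and robust prior, a filter on dim probe sets, other probe sets per gene, a replicate block, each array left out, other criteria, group means, the untreated arrays alone and, chosen after seeing the data, leaving out both arrays of low gland signal. The models were tested on simulated data. Plots were drawn with matplotlib 3.10.9.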

Additional observations from a re-analysis of the deposited data

How the results depend on the processing

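No member was called in any of the 10 comparisons, and 176 of 181 counts under the alternatives were also 0. With a trend and robust fitting, CFA+PTX against untreated gave 1 call, Tsc22d3 at 0.71 (adjusted p = 0.0321, limma). For H3RKO against WT in untreated LN, a fold change over 1.5 gave 1 call, Zbtb16 at 0.89, and leaving out each array gave counts from 0 to 1. There too the call was Zbtb16, at 1.38 without untreated WT replicate 1 and at 1.14 without untreated H3RKO replicate 2. For the interaction of genotype with CFA, leaving out each array gave counts from 0 to 1, the call being Zbtb16 at −1.43 without untreated WT replicate 1. Leaving out an array removes a sample from a pair, and beyond this the cause was not tested. The 20 member differences with an unadjusted p under 0.05 kept their direction in 394 of 394 values under the alternatives. They were chosen by that p on the same arrays, and some alternatives change only the p or the criterion. The count therefore does not test the directions. Of the 1044 other values, 80 had the opposite sign. The untreated replicate numbers mark no shared litter or batch in the labels. With the replicate number as a block the count of calls was 0 in all 10 comparisons, and the deviations of same-numbered untreated arrays correlated at 0.123 over 2 pairs. The number of arrays, 1 per injected group, limits every comparison, and the dim signal of Zbtb16 limits its values.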

Other observations

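Mt2, a metallothionein gene that glucocorticoid and metals induce, was the 1 gene among the other induced genes that met the methods' criterion between genotypes in untreated LN, 1 of 28 beside 0.161% of all genes. Its log2 signals were 11.96 and 10.91 in untreated H3RKO, against 10.45 and 10.24 in untreated WT, a difference of 1.10 ± 0.33 (adjusted p = 0.916, limma). The criterion was no longer met without untreated H3RKO replicate 1, at 0.57, or without untreated WT replicate 2, at 0.99. After CFA it read 10.52 in H3RKO and 10.94 in WT. Its neighbour Mt1 had log2 signals of 11.59 and 10.90 in untreated H3RKO, against 10.98 and 10.65 in untreated WT, and the groups overlapped.

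Of the remaining lists, 8 of 15 immediate early genes were higher with CFA+PTX than in untreated LN (median 0.08), among them Fosb by 1.01, or 0.62 without the H3RKO CFA+PTX array. The counts were 7 of 11 for monocyte and macrophage markers (median 0.16), 4 of 8 for T cell markers (0.01), 4 of 8 for dendritic cell markers (0.02), 5 of 10 for stromal and endothelial markers (0.02) and 5 of 10 for skeletal muscle markers (−0.03). Of all genes, 52.2% were higher.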
